A study of Mus musculus with 44 samples.

Results

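The comparison described here set kidneys of Bmal1 knockout mice (KO) against wild-type kidneys (WT) at zeitgeber times (ZT) 12 and 16. ZT counts the hours after lights on, so these times cover dusk and the early part of the night, when the mice had access to food. Its members were the 8 RNA libraries that the sample labels place at those times, 4 KO and 4 WT, out of 44 samples in the series. They were chosen by label alone. Each genotype held 2 libraries at ZT12 and 2 at ZT16, lettered A and B. The other kidney RNA libraries of the series, 16 in all, were taken at 4 other times. The labels give the 129SV strain for both genotypes, and the series' design text names the knockout as Bmal -/-. All mice were 8 to 12 weeks old and were fed during the night only. Whether the letters mark separate animals is not stated, so p-values measure the spread between these libraries, which may be technical. How the Bmal -/- allele was made, and which part of the gene it lacks, is not given in the sources used here.

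Bmal1, whose gene symbol is Arntl, pairs with CLOCK or NPAS2 to form the activating arm of the circadian clock. The pair binds E-box sequences and switches on the period and cryptochrome genes, whose proteins then repress it. It also switches on the REV-ERB receptors, which compete with the ROR receptors for RORE sequences and so repress Arntl itself. A further arm consists of the PAR bZIP activators DBP, TEF and HLF, which act at D-box sequences against the repressor NFIL3. In the kidney, this clock is known to shape the daily course of tubular transport and of filtration.

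Expression was given as TPM, a transcript abundance unit that scales every library to the same total. Sequencing depth is therefore unknown, and no counting interval can be given. Genotype differences below are log2(KO) minus log2(WT) of TPM + 0.1 with time as a covariate. They carry a standard error (SE) and a p-value from limma adjusted over all genes tested, and a gene was called where that p-value was under 0.05. In such bulk tissue, fewer cells of a type and less RNA per cell cannot be told apart.

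The library labelled KO ZT12 A stood apart from the other 7. The 4 Y-linked genes measured summed to 3.31 TPM there and to between 50.7 and 62.0 TPM in the rest. Ddx3y, a Y-linked RNA helicase gene, was at 0.0990 TPM in KO ZT12 A and between 12.0 and 16.6 TPM elsewhere. The sex of the mice is not given in the labels used here. Along the first principal component, which held 43.1% of the variance, KO libraries lay between 22.9 and 54.9 and WT libraries between -50.2 and -32, with KO ZT12 A at the extreme. Replicates correlated at 0.948 to 0.96 across genes, and 12398 to 12911 genes reached 1 TPM per library. Kidney markers were abundant in every library, with 7 proximal tubule markers summing to between 1996 and 2574 TPM. Markers of the adrenal cortex, the neighbouring gland, summed to 0.76 to 1.35 TPM, with its defining enzyme gene Cyp11b1 at or under 0.0270 TPM. Without KO ZT12 A, 126 of 137 genes examined singly kept their direction and their side of the threshold. Among these 137, Per2, Hspd1, Pdia4 and Rsad2 lost their calls, Usp2, Fkbp5, Cirbp and Kdm5d gained one, and 3 uncalled genes changed sign. Other genes outside these counts changed calls too, such as Fn1, which lost its call, and Slc7a13, which gained one.

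Of 12883 genes tested, 5212 (40.5%) were called. KO was higher for 4312 (33.5%) and lower for 900 (6.99%). The median difference over all genes was 0.20, and the share of mitochondrially encoded RNA was lower in KO. With TPM rescaled without the mitochondrial genes the median was 0.15, with 3087 genes higher and 1035 lower, so 74.9% of the called genes were higher. After median-of-ratios scaling, which sets that median near 0, 1486 genes were higher and 1730 lower, so the share of higher genes among those called moved from 82.7% to 46.2%. Leaving out KO ZT12 A gave 3587 higher and 842 lower genes, and 4196 genes were called both ways. Differences of at least 1 log2 unit were found for 394 higher and 249 lower genes. All 4 KO values lay above all 4 WT values for 4391 of the 12883 genes, and below them for 862. Groups that do not overlap were therefore common and do not set a gene apart. Counts for gene groups are to be read against the shares of all genes, 33.5% higher and 6.99% lower as deposited, 27.8% and 6.54% without KO ZT12 A, and 11.5% and 13.4% with median-of-ratios scaling. That scaling ended the calls of Lonrf3, Hsd11b2, Btg2, Pdia4, Nqo1, Rsad2, Ifit3, Ndufs3, Psmd9 and Psmd3 among the 137 genes.

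The promoters of 7 clock and output genes are shown, chosen among those that hold 1 of the 3 motifs through which the clock is known to act. They come from RefSeq on the GRCm38.p6 build and run from 250 bases before to 50 after an annotated start, 5′ to 3′ on the gene's strand. Capitals mark the motifs searched on both strands, which were the E-box CACGTG, the RORE ANTAGGTCA and the D-box TTATGTAA, TTACGTAA or TTACATAA. Of 30 clock and output genes listed, 26 had a window. The second of the Arntl windows, Nfil3 and Leo1 each held 1 RORE, Ciart held 3 E-boxes, Cry1 and the first window of Tef held 1 E-box each, and Per3 held 2 D-boxes.
Arntl, chr7:113207261-113207560, plus strand: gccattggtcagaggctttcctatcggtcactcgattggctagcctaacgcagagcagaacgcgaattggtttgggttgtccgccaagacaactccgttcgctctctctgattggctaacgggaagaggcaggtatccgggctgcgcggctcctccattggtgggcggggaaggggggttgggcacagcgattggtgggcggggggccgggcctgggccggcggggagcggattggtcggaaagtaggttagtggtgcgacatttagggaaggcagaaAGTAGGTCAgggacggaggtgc
Nfil3, chr13:52980990-52981289, minus strand: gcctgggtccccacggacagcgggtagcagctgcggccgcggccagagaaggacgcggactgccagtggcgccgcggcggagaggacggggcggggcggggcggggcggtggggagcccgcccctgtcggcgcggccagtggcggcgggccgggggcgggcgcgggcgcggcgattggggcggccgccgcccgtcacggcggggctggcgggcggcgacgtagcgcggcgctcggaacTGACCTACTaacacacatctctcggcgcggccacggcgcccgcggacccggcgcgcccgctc
Leo1, chr9:75441274-75441573, plus strand: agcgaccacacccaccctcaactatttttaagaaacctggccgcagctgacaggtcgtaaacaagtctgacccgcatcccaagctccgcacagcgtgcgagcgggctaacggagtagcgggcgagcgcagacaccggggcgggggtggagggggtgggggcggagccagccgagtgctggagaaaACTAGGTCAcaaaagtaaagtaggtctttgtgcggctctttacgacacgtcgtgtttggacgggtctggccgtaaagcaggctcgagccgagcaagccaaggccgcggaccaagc
Ciart, chr3:95882179-95882478, minus strand: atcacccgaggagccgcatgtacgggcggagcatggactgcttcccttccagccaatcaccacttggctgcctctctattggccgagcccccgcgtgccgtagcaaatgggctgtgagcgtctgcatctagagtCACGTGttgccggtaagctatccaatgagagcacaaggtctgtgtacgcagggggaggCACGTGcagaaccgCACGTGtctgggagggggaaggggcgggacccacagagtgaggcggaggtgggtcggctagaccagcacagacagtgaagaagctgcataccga
Cry1, chr10:85185005-85185304, minus strand: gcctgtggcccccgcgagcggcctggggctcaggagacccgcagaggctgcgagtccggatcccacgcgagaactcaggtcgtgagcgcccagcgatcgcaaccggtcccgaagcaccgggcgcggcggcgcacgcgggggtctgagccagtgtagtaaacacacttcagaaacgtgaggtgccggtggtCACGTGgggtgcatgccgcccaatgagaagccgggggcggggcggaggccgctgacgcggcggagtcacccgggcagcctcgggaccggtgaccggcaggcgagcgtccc
Tef, chr15:81802423-81802722, plus strand: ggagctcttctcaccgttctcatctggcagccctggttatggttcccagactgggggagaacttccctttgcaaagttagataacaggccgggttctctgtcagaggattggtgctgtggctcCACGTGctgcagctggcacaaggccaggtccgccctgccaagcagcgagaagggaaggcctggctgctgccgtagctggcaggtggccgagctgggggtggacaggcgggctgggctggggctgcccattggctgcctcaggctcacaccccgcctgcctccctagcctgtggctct
Per3, chr4:151044616-151044915, minus strand: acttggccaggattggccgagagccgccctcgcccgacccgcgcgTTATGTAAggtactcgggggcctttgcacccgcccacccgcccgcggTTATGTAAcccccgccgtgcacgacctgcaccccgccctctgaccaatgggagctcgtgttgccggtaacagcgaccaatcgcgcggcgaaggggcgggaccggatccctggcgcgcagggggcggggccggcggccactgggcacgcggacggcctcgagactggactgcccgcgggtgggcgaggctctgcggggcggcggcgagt
Among all 32851 windows, 7.15% held an E-box, 0.66% a RORE and 1.06% a D-box. A match is a description of the letters and not of binding. The windows of Dbp, Nr1d1, Nr1d2 and Npas2 held none of the 3 motifs. A window of Per1, Bhlhe41, Fkbp5, Lonrf3 and Tspan4, and the second of Tef, held 1 E-box each and are not shown. Lonrf3 was called higher and Tspan4 lower, Per1 and Fkbp5 were not called, and Bhlhe41 was below the filter. Of 49 tested genes with a RORE window, 19 were higher and 5 lower in KO. Of 84 with a D-box window, 26 were higher and 18 lower, and of 1133 with an E-box window, 370 were higher and 88 lower. Over all 9600 tested genes with a window, 35% were higher and 6.79% lower, which puts the RORE genes at 38.8% and 10.2%, the D-box genes at 31% and 21.4% and the E-box genes at 32.7% and 7.77%.

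The 3 activator genes were all higher in KO at dusk. Arntl, the targeted gene, was at 5.94 and 5.70 TPM in the KO libraries of ZT12 and at 6.20 and 5.42 TPM in those of ZT16. WT libraries held 0.295 and 0.527 TPM at ZT12 and 1.74 and 2.03 TPM at ZT16. All KO values thus lay above all WT values, with a difference of 2.57 (SE 0.40, adjusted p = 0.00326). The table holds a single Arntl transcript on chromosome 7, 113207465 to 113314126, so this level does not show whether the deleted part is absent and checks no label. Npas2, which can stand in for CLOCK as the partner of BMAL1, lay between 21.5 and 23.0 TPM in the 4 KO libraries. Its WT values were 0.143 and 0.350 TPM at ZT12 and 0.565 and 0.821 TPM at ZT16. This difference of 5.44 (SE 0.29, adjusted p = 6.66e-05) was among the 12 most positive of the non-overlapping protein-coding genes. Clock itself lay between 7.39 and 10.1 TPM in KO and between 4.12 and 5.86 TPM in WT, a difference of 0.83 (SE 0.12, adjusted p = 0.00227). Without KO ZT12 A the 3 differences were 2.36, 5.32 and 0.70, each still called.

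Among the period genes and Ciart, 3 genes were lower. Per3, a period gene with 2 D-boxes in the window shown, was at 1.92 and 2.02 TPM in KO at ZT12 and at 1.19 and 1.73 TPM at ZT16. WT held 10.9 and 10.1 TPM at ZT12 and 7.26 and 8.21 TPM at ZT16, so the groups did not overlap at either time and the difference was -2.35 (SE 0.12, adjusted p = 3.96e-05). Ciart, which encodes a repressor of the activator pair, had 1.88, 0.794, 0.843 and 0.711 TPM in KO. In WT it fell from 20.3 and 11.8 TPM at ZT12 to 3.05 and 2.38 TPM at ZT16. The lowest WT value still exceeded the highest KO value, and the difference was -2.61 (SE 0.45, adjusted p = 0.00493). Per2 overlapped between genotypes, with 11.9 to 22.7 TPM in KO and 22.2 to 35.5 TPM in WT. Its difference of -0.73 (SE 0.25) had an adjusted p of 0.0483, and 0.0523 without KO ZT12 A, so the call did not hold without that library. With median-of-ratios scaling its difference was -0.94 (adjusted p = 0.0269). Per3 and Ciart remained called without KO ZT12 A, at -2.34 and -2.65. Per1 was at 4.51 to 13.7 TPM in KO and 6.38 to 15.7 TPM in WT, a difference of -0.15 that was not called.

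The cryptochromes, which carry the repressing function, were higher in KO. Cry1 had 17.8, 13.6, 15.6 and 13.1 TPM in KO against 3.29 and 2.17 TPM in WT at ZT12 and 5.75 and 6.19 TPM at ZT16. No value overlapped, and the difference was 1.87 (SE 0.28, adjusted p = 0.00254), or 1.67 without KO ZT12 A. Cry2 lay between 9.32 and 11.7 TPM in KO and between 6.78 and 7.95 TPM in WT, a smaller difference of 0.50 (SE 0.10, adjusted p = 0.00599). That of Cry2 was not called with the spread taken from all 24 libraries (adjusted p = 0.0737), nor with median-of-ratios scaling and KO ZT12 A left out together (adjusted p = 0.0716). Bhlhe40, a further E-box repressor, was not called (difference -0.25). Bhlhe41 was below the filter, at 0.452 to 1.14 TPM in KO and 0.582 to 2.02 TPM in WT.

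Both REV-ERB genes were lower in KO. Nr1d1, which encodes REV-ERBα, was at 2.06, 3.46, 1.93 and 1.80 TPM in KO. WT held 20.6 and 21.3 TPM at ZT12 but only 4.79 and 5.06 TPM at ZT16. The difference over both times was -2.14 (SE 0.33, adjusted p = 0.00301). Nr1d2, which encodes REV-ERBβ, stayed high in WT at 30.8, 29.2, 20.2 and 20.9 TPM and lay between 0.893 and 2.58 TPM in KO. That difference was -3.68 (SE 0.25, adjusted p = 0.000186), the lowest of the clock lists. Rora was not called as deposited (difference -0.31, adjusted p = 0.145), but was lower with median-of-ratios scaling (-0.51, adjusted p = 0.043). Nr1d1 and Nr1d2 remained called without KO ZT12 A, at -1.84 and -3.63.

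Among the D-box regulators, the activators Dbp and Tef were lower and their antagonist Nfil3 was higher. Dbp fell in WT from 71.2 and 51.4 TPM at ZT12 to 16.9 and 13.2 TPM at ZT16, while the 4 KO libraries held 2.30 to 3.46 TPM. The highest KO value was below the lowest WT value, and the difference was -3.31 (SE 0.34, adjusted p = 0.000881), or -3.12 without KO ZT12 A. Tef was the more abundant of the PAR bZIP genes, with 63.2 to 85.5 TPM in KO and 127 to 228 TPM in WT, a difference of -1.07 (SE 0.13, adjusted p = 0.00103), and Tef was still called without KO ZT12 A (adjusted p = 0.00358). Hlf did not overlap but was not called as deposited (difference -0.25, adjusted p = 0.122). With median-of-ratios scaling the Hlf difference was -0.46 (adjusted p = 0.0251). Nfil3, with a RORE in the window shown, was at 19.97 and 12.5 TPM in KO at ZT12 and at 11.1 and 8.85 TPM at ZT16. WT held 0.567 and 0.746 TPM and then 4.45 and 3.68 TPM, so the groups approached each other at ZT16 without meeting. Its difference was 2.84 (SE 0.65, adjusted p = 0.0162) and 2.39 without KO ZT12 A (adjusted p = 0.0291). With median-of-ratios scaling and that library left out together, Nfil3 was no longer called, at 2.22.

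**Figure D1:**
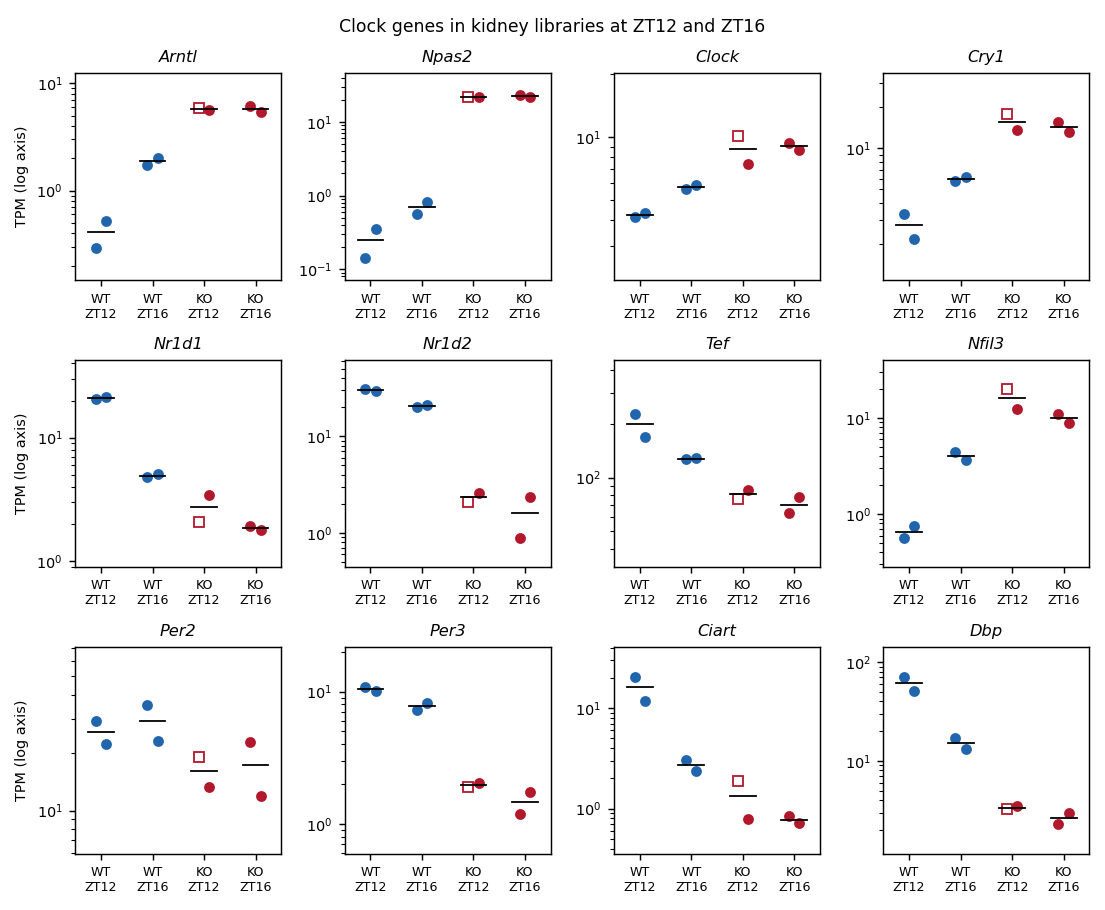
TPM on a log axis for 12 clock genes in the 8 libraries, by genotype and time (WT blue, KO red, KO ZT12 A as an open square, black bars for the mean of 2 libraries). Arntl, Npas2, Clock, Cry1 and Nfil3 lie higher in every KO library and Nr1d1, Nr1d2, Tef, Per3, Ciart and Dbp lower, while Per2 overlaps.

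Of 11 genes that follow the clock in several tissues, 3 were higher (27.3%, against 33.5% of all genes). Another 4 were lower (36.4%, against 6.99%) and 4 were not called. The counts were 3 higher and 6 lower without KO ZT12 A, and 2 higher and 5 lower with median-of-ratios scaling. Cdkn1a, which encodes the cell cycle inhibitor p21, was at 26.7, 7.17, 13.7 and 14.5 TPM in KO and at 1.69 to 2.07 TPM in WT. Its difference was 2.84 (SE 0.36, adjusted p = 0.00167), and 2.49 without KO ZT12 A, the library with the highest value. Leo1, a subunit gene of the PAF1 transcription elongation complex with a RORE in the window shown, held 7.49 to 9.55 TPM in KO and 2.85 to 4.95 TPM in WT (difference 1.11, SE 0.14). Lonrf3 was also higher (0.87, adjusted p = 0.0196), though its adjusted p was 0.0591 after median-of-ratios scaling. Wee1, a kinase gene that restrains entry into mitosis, was lower at 2.74 to 4.67 TPM against 5.79 to 7.99 TPM (difference -1.05, adjusted p = 0.00382). Por, the electron donor of microsomal cytochrome P450 enzymes, was lower at 69.4 to 90.4 TPM against 137 to 167 TPM (-0.92, adjusted p = 0.000701). Tspan4 (-0.86) and Nampt (-0.47), the latter a rate-limiting enzyme gene of NAD salvage, were lower too. Usp2, Fkbp5, Noct and Tsc22d3 were not called. Without KO ZT12 A, Usp2 and Fkbp5 were both called lower, at -0.69 (adjusted p = 0.0443) and -1.36 (adjusted p = 0.0227). With median-of-ratios scaling Usp2 was called as well (-0.76, adjusted p = 0.0301). Fkbp5, a glucocorticoid-responsive gene, was at 27.8 TPM in KO ZT12 A and at 7.62 to 17.2 TPM in the other KO libraries.

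Large differences outside the clock were found for genes that differ between male and female mouse kidneys. The lists of male-high and female-high genes used here were drawn up in earlier work on these libraries, so their direction is not independent evidence. Of 9 male-high genes, 7 were lower in KO and none higher. Of 3 female-high genes, all were higher. With median-of-ratios scaling both counts stayed at 7 and 3, and without KO ZT12 A they were 8 and 3. Slco1a1, an organic anion transporter gene under androgen control, was at 0.326, 1.70, 2.52 and 1.57 TPM in KO and at 99.4, 157, 114 and 63.4 TPM in WT. The groups were far apart, with a difference of -6.25 (SE 0.61, adjusted p = 0.00103), and of -5.66 without KO ZT12 A. Kap, the androgen-regulated kidney protein gene, held 10480 to 18730 TPM in KO and 33510 to 40650 TPM in WT (-1.31, adjusted p = 0.00169). Slc7a13, an amino acid transporter gene of the late proximal tubule, was at 1.85 TPM in KO ZT12 A, at 74.7 to 134 TPM in the other KO libraries and at 357 to 447 TPM in WT. Its adjusted p was 0.0699 with that library and 0.00132 without it. Akr1c21 was the other male-high gene that was not called, and was not called without KO ZT12 A either (adjusted p = 0.135). Prlr, the prolactin receptor gene, held 33.6 to 52.1 TPM in KO and 0.679 to 6.06 TPM in WT (3.92, adjusted p = 0.0057). Slc7a12 held 73.3 to 114 TPM in KO and 1.35 to 16.4 TPM in WT (4.56, adjusted p = 0.00441). The 9 male-high genes summed to 16230 to 20190 TPM in the 3 KO libraries with Y-linked RNA. In WT they summed to 37850 to 44980 TPM, and Kap made up most of each sum. The difference was present without KO ZT12 A, where 8 of the 9 genes were called lower. Whether it has a part in the other genotype differences was not tested.

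**Figure D2:**
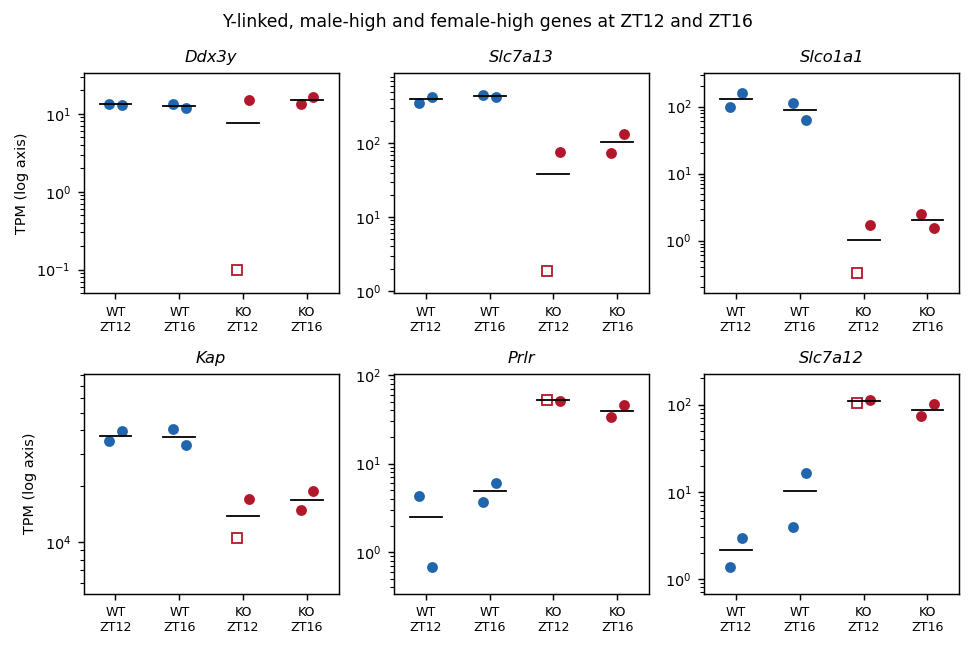
TPM on a log axis for a Y-linked gene, 3 male-high genes and 2 female-high genes in the 8 libraries (WT blue, KO red, KO ZT12 A as an open square, bars for means of 2 libraries). Only KO ZT12 A lacks Ddx3y, whereas Slco1a1, Kap, Prlr and Slc7a12 separate all KO from all WT libraries.

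Of the 12 most negative non-overlapping protein-coding genes, Cyp2a5, a cytochrome P450 gene, had the most negative difference, with 1.88 to 2.69 TPM in KO and 143 to 250 TPM in WT (-6.38, SE 0.15, adjusted p = 7.31e-07). Cyp2a4, its close paralog, was lower by a similar amount (-5.40), and reads shared by the pair may have been split between them. Cyp4a12a (-6.23), the N-acetyltransferase-like genes Nat8f5 (-6.18) and Nat8f6 (-4.98), the carboxylesterase gene Ces1g (-5.01), Pzp (-4.66) and Slc22a26 (-4.24) were also in this set. Acsm3 was at 3.66 TPM in KO ZT12 A, at 104 to 156 TPM in the other KO libraries and at 803 to 1382 TPM in WT, and Cyp2j13 showed the same order (0.546, 8.38 to 15.8 and 110 to 141 TPM). Angptl7, an angiopoietin-like gene, differed little between libraries of a genotype (0.224 to 0.332 TPM against 5.12 to 8.98 TPM). The 12 differences without KO ZT12 A ranged from -6.37 for Cyp2a5 to -3.20 for Acsm3, all called.

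The 12 most positive such genes included Npas2, Prlr and Slc7a12, given above. Gm11060, a predicted protein-coding gene, was listed at 0 in every WT library and at 10.4 to 19.4 TPM in KO, so no fold is given. At the other 4 times its genotype difference was -0.93, with an SE of 2.04 too wide to show whether the genotypes separated there. The test against those times did not call it (7.98, SE 3.53, adjusted p = 0.27). Bhmt, which remethylates homocysteine with betaine, was at 78.5, 70.5, 66.6 and 58.4 TPM in KO and at 0.997 to 1.23 TPM in WT. It was the most even of these genes, with a difference of 5.83 (SE 0.11, adjusted p = 2.24e-07). Cyp4a14, a fatty acid hydroxylase gene that is higher in female kidneys, varied more, at 169 to 701 TPM in KO and 1.91 to 13.4 TPM in WT (5.93, SE 0.83). The water channel gene Aqp8 (5.28), the lysyl oxidase gene Loxl4 (4.32), the retinoic acid-binding protein gene Crabp1 (4.11) and Khdrbs2 (3.85) were also higher. Ugt1a2 and Ugt1a10 encode glucuronosyltransferases from a shared locus with common exons, so their reads may not be separable. Ugt1a2 was at 753 TPM in KO ZT12 A and at 30.1 to 44.1 TPM in the other KO libraries, against 1.67 to 6.17 TPM in WT. Its difference of 4.78 became 3.76 without that library, a change of more than 1.5 times in the fold. Ugt1a10 held 111 to 194 TPM in KO and 2.64 to 11.8 TPM in WT (4.35).

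Genes for tubular sodium handling were mostly higher in KO. Of 18 tested, 15 were called higher (83.3%, against 33.5% of all genes) and none lower, with a median difference of 0.60 against 0.20. Median-of-ratios scaling left 12 higher (66.7%, against 11.5%), leaving out KO ZT12 A left 14, and both together left 10. Slc12a1, the sodium-potassium-chloride cotransporter NKCC2 of the thick ascending limb, was at 540 and 439 TPM in KO at ZT12 and at 413 and 414 TPM at ZT16. WT held 230, 236, 238 and 259 TPM, so the lowest KO value was well above the highest WT value (difference 0.90, SE 0.09, adjusted p = 0.000587). Kcnj1, the ROMK potassium channel that recycles potassium for NKCC2, held 102 to 120 TPM in KO and 50.9 to 67.0 TPM in WT (0.91, adjusted p = 0.000645). Scnn1b, a subunit of the epithelial sodium channel of the collecting duct, held 30.3 to 35.1 TPM in KO and 13.0 to 16.4 TPM in WT (1.11, adjusted p = 0.000246). Slc4a1, the chloride-bicarbonate exchanger of acid-secreting intercalated cells, was at 19.3 to 22.9 TPM against 8.08 to 11.7 TPM (1.15, adjusted p = 0.000637). All 4 remained called under both scalings and without KO ZT12 A. The members not called were the sodium pump subunit gene Atp1b1, the phosphate cotransporter gene Slc34a1 and the potassium channel gene Kcnj16, named here after their values were seen.

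Among 11 aldosterone and WNK pathway genes, 7 were higher (63.6%, against 33.5% of all genes) and none lower. Klhl3, the adaptor that targets WNK kinases for degradation, held 8.58 to 11.3 TPM in KO and 4.84 to 6.06 TPM in WT (0.76, adjusted p = 0.00183). Stk39, which encodes the kinase SPAK below the WNKs, differed by 0.70 and Wnk1 by 0.57. Hsd11b2, which protects the mineralocorticoid receptor from glucocorticoids, differed by 0.54 (adjusted p = 0.0124), but by 0.33 with an adjusted p of 0.104 after median-of-ratios scaling. With that scaling, 3 genes of the list were higher and 1 lower. With KO ZT12 A left out as well, 1 was higher and 1 lower, and Stk39 (adjusted p = 0.0519) and Wnk1 (adjusted p = 0.0834) were not called. Of 10 water and urea transport genes, 3 were higher (30%, near the 33.5% of all genes) and none lower. Avpr2, the vasopressin V2 receptor gene, held 17.3 to 20.6 TPM in KO and 6.24 to 12.1 TPM in WT (1.08, adjusted p = 0.00265). Slc14a2, the urea transporter UT-A, held 16.5 to 28.4 TPM in KO and 9.38 to 10.4 TPM in WT (1.15, adjusted p = 0.00129). Slc14a1, the other urea transporter, was at 9.50 TPM in KO ZT12 A, at 2.94 to 3.22 TPM in the other KO libraries and at 1.55 to 1.64 TPM in WT. Its difference was 1.30 with that library and 0.91 without it (adjusted p = 0.00152). Without that library, or with median-of-ratios scaling, 1 further gene of this list was lower.

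Organic ion and drug transporters went in both directions, with 2 of 14 higher and 6 lower (42.9%, against 6.99% of all genes). After median-of-ratios scaling 2 were higher and 8 lower, and without KO ZT12 A 3 were higher and 5 lower. Slc22a7, the organic anion transporter OAT2, was at 34.3, 18.3, 13.6 and 20.5 TPM in KO and at 110, 59.2, 89.0 and 53.7 TPM in WT (-1.87, SE 0.31, adjusted p = 0.00478). Slc22a6, the transporter OAT1 and a proximal tubule marker, was at 32.0 TPM in KO ZT12 A, at 75.4 to 121 TPM in the other KO libraries and at 172 to 202 TPM in WT. Its difference was -1.44 with that library and -1.08 without it (adjusted p = 0.00509). Abcc2 was modestly lower (-0.39, adjusted p = 0.0137). The efflux pump genes Abcb1b, with 6.17 to 8.22 TPM against 1.15 to 2.02 TPM (2.31), and Abcc4 (1.22) were higher.

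**Figure D3:**
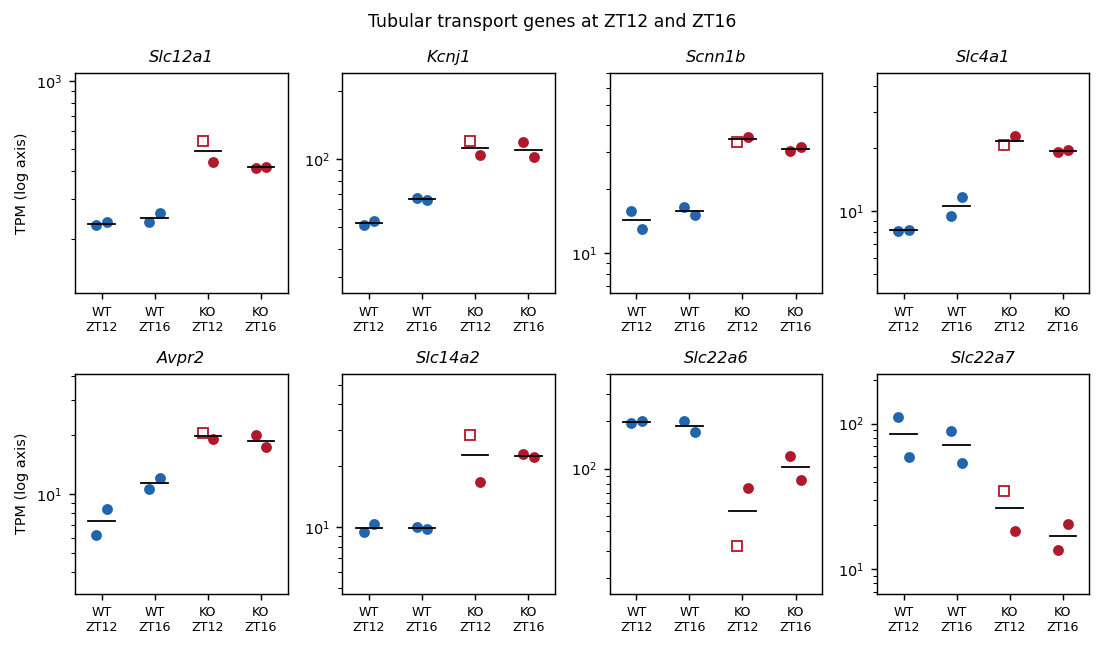
TPM on a log axis for 8 transport genes in the 8 libraries (WT blue, KO red, KO ZT12 A as an open square, bars for means of 2 libraries). The 4 KO libraries lie above the 4 WT libraries for Slc12a1, Kcnj1, Scnn1b, Slc4a1, Avpr2 and Slc14a2 and below them for Slc22a6 and Slc22a7.

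Sterol synthesis genes tended to be lower, with 8 of 18 lower (44.4%, against 6.99% of all genes) and 1 higher in KO and a median of -0.29 against 0.20. The counts were 9 lower and 1 higher with median-of-ratios scaling and 7 lower and 1 higher without KO ZT12 A. Sqle, the squalene epoxidase gene, held 8.98 to 12.4 TPM in KO and 17.3 to 20.1 TPM in WT (-0.83, SE 0.11, adjusted p = 0.0013). Mvd (-0.63) was lower too, and Pmvk was the 1 gene higher (0.60). Of 11 fatty acid synthesis genes, 4 were lower (36.4%) and 2 higher, also without KO ZT12 A, and 4 were lower and 1 higher with median-of-ratios scaling. Me1, the malic enzyme gene that supplies NADPH, was at 60.5 TPM in KO ZT12 A, at 97.3 to 105 TPM in the other KO libraries and at 183 to 198 TPM in WT (-1.08, and -0.91 without that library). Elovl6, a fatty acid elongase gene, was higher at 7.20 to 15.3 TPM against 2.90 to 3.67 TPM (1.36, adjusted p = 0.00238).

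Of 18 fatty acid oxidation genes, 6 were higher (33.3%, the share of all genes being 33.5%) and 3 lower. Hadha, a subunit of the mitochondrial trifunctional protein, held 154 to 183 TPM in KO and 99.2 to 119 TPM in WT (0.69, adjusted p = 0.00114). Acot1 was higher (1.26). Plin2, a lipid droplet gene, was lower at 33.3 to 43.1 TPM against 48.5 to 52.4 TPM (-0.42, adjusted p = 0.00329). Without KO ZT12 A, 3 genes of the list were higher and 3 lower, and with median-of-ratios scaling 4 were higher and 5 lower. Of 13 genes of gluconeogenesis and the insulin and FoxO response, 7 were higher (53.8%, against 33.5% of all genes) and none lower. With median-of-ratios scaling 7 were higher and 2 lower, with KO ZT12 A left out as well 2 were higher and 1 lower, and at ZT16 alone none was called. Igfbp1, a binding protein gene that insulin represses, was at 9.92 and 17.1 TPM in KO and at 4.99 and 2.17 TPM in WT at ZT12. At ZT16 it was at 3.04 and 4.36 TPM in KO and at 0.505 and 1.12 TPM in WT, so the genotypes separated within each time but not across them (2.04, SE 0.34, adjusted p = 0.0042). G6pc, the final enzyme gene of glucose release, held 250 to 428 TPM in KO and 134 to 185 TPM in WT (0.92, adjusted p = 0.00802). The insulin receptor gene Insr differed by 0.56 and Sesn1 by 0.63, and neither was called with both changes (adjusted p = 0.0541 and 0.0598).

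Of 12 heat shock genes, 1 was called, Hspd1, which was lower by a small amount (-0.20, adjusted p = 0.0315) and was not called without KO ZT12 A (adjusted p = 0.0682). With median-of-ratios scaling, 3 heat shock genes were lower, and without KO ZT12 A 1 was higher and 1 lower. Neither of the 2 cold-inducible genes was called. Cirbp differed by 0.38 (adjusted p = 0.241), and by 0.63 without KO ZT12 A (adjusted p = 0.0193). Of 16 endoplasmic reticulum chaperone genes, 1 was called, Pdia4 (0.26, adjusted p = 0.0473), and it was not called without that library (adjusted p = 0.111). Btg2 was the 1 of 9 immediate early genes called (0.53, adjusted p = 0.00785), and its adjusted p was 0.0655 after median-of-ratios scaling. Of 11 targets of the antioxidant factor NRF2, 2 were higher (18.2%, against 33.5% of all genes), among them Nqo1 (0.41). Another 2 were lower (18.2%, against 6.99%), among them Gclm, a subunit gene of glutathione synthesis (-0.56, adjusted p = 0.000645). With median-of-ratios scaling none of the NRF2 targets was higher. Of 12 interferon-stimulated genes, 3 were higher, Ifi44 (0.74), Rsad2 (0.57) and Ifit3 (0.44), a share of 25% that is below the 33.5% of all genes. The count was 1 after median-of-ratios scaling and 2 without KO ZT12 A.

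Tubular injury markers gave a mixed account. Of 6 tested, 4 were higher (66.7%, against 33.5% of all genes) and 1 lower (16.7%, against 6.99%). The counts were the same without KO ZT12 A. With median-of-ratios scaling 3 were higher (50%, against 11.5%) and 1 lower (16.7%, against 13.4%). Spp1, the osteopontin gene, held 721 to 1133 TPM in KO and 363 to 442 TPM in WT (1.10, SE 0.10, adjusted p = 0.00032). Clu, the clusterin gene, held 218 to 250 TPM against 101 to 120 TPM (1.09, adjusted p = 0.000136), and Krt18 differed by 0.94. Vcam1 was lower at 1.79 to 2.46 TPM against 3.33 to 4.55 TPM (-0.79, adjusted p = 0.00543). Havcr1, the gene of the injury marker KIM-1, was below the filter at 0.0459 to 0.417 TPM in KO and 0.475 to 1.94 TPM in WT. Of 11 collagen and matrix genes, Col4a1 and Col4a2, the basement membrane collagen genes, were higher (1.14 and 0.88). That is 18.2%, against 33.5% of all genes. Both were also higher with median-of-ratios scaling and without KO ZT12 A. Fn1, the fibronectin gene, was lower (-0.54, adjusted p = 0.0435) but was not called without that library (adjusted p = 0.106).

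Genes of protein synthesis and respiration showed how the scaling bears on small differences. Of 81 cytosolic ribosomal protein genes, 62 were higher (76.5%, against 33.5% of all genes) and 2 lower, with a median of 0.36. After median-of-ratios scaling 18 were higher (22.2%, against 11.5% of all genes) and 4 lower. Leaving out KO ZT12 A gave 57 higher and 2 lower. Rpl23 held 420 to 429 TPM in KO and 303 to 316 TPM in WT (0.46), and Rpl7 differed by 0.46 and Rps26 by 0.51. Of 91 nuclear genes of the respiratory chain, 38 were higher (41.8%, against 33.5% of all genes) and none lower. With median-of-ratios scaling 1 was higher and 6 lower (6.59%, against 13.4% of all genes), and 84 were not called. Their median was then -0.04 against -0.002 for all genes, so most calls were lost with the scaling. Atp5g1 (0.47) and Ndufs3 (0.38) had the smallest p-values of the list. Of 38 proteasome subunit genes, 2 were higher (5.26%, against 33.5% of all genes), Psmd9 (0.44) and Psmd3 (0.38). Another 5 were lower (13.2%, against 6.99%), among them Psmb5 (-0.22) and Psmc2 (-0.23). With median-of-ratios scaling none was higher and 21 were lower (55.3%, against 13.4%). Of 13 mitochondrially encoded proteins, 8 were lower (61.5%, against 6.99% of all genes) and 1 higher as deposited. After that scaling 12 were lower (92.3%, against 13.4%) and none higher. Leaving out KO ZT12 A left 4 lower. Among them mt-Nd5 held 3773 to 4512 TPM in KO and 5137 to 5489 TPM in WT (-0.35), and mt-Nd3 differed by -0.30. RNA of the mitochondrial chromosome made up 39.1% ± 0.381 of gene TPM in KO (SD, n = 4) and 41.6% ± 1.22 in WT (SD, n = 4). The difference was -2.52 percentage points (exact permutation test within time, two-sided, p = 0.0556). That is the smallest p the 36 arrangements allow, so this test cannot reach 0.05. The share was lower in all 4 KO libraries than in any WT library.

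**Figure D4:**
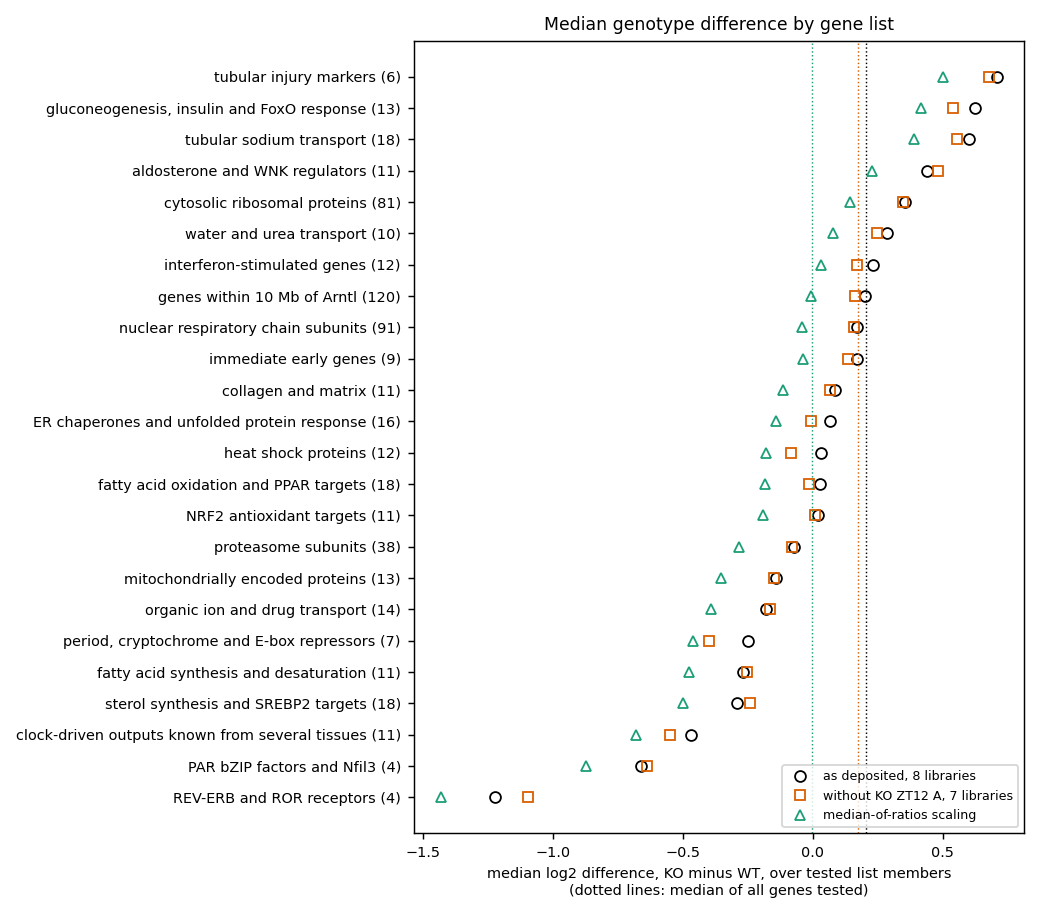
Median log2 difference (KO minus WT) over the tested members of each gene list, with the number tested in parentheses, as deposited (black circles), without KO ZT12 A (orange squares) and with median-of-ratios scaling (green triangles). Dotted lines mark the median of all genes, 0.20 as deposited, and sodium transport lies to the right of them and sterol synthesis to the left in each setting.

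Markers of some cell types moved with genotype, and their counts are to be read against the shares of all genes. Those called higher were 33.5% as deposited and 11.5% with median-of-ratios scaling. All 5 podocyte markers were higher in KO under both scalings and without KO ZT12 A. Wt1, a transcription factor gene of podocytes, held 6.41 to 7.84 TPM in KO and 3.57 to 3.89 TPM in WT (0.82, adjusted p = 0.00079), and Nphs1 differed by 0.73. Summed podocyte markers were 104 to 125 TPM in KO and 62.8 to 69.8 TPM in WT. Intercalated cell markers were all higher as well, 4 of 4, with sums of 78.5 to 100.3 TPM in KO and 46.9 to 62.0 TPM in WT, and 3 of 4 after median-of-ratios scaling. Among them were the proton pump subunit genes Atp6v0d2 (0.86) and Atp6v1g3 (0.76). In the distal convoluted tubule, the magnesium channel gene Trpm6 (1.10) and the thiazide-sensitive cotransporter gene Slc12a3 (0.48) were higher, 2 of 3 markers. Of 4 principal cell markers, 2 were higher, with Fxyd4 at 0.94, and 1 was higher with median-of-ratios scaling. Of 4 thick ascending limb markers 2 were higher and Umod, the uromodulin gene, was lower (-0.48), so the segment's markers did not move together. Of 7 proximal tubule markers, 2 were higher, among them the glucose transporter gene Slc5a2 (0.60), and 1 was lower. Those 2 of 7 (28.6%) are near the share of all genes. Without KO ZT12 A, 1 was higher and 2 lower, and with median-of-ratios scaling 1 was higher and 1 lower. Pecam1 was 1 of 2 endothelial markers called among 5 (40%, near the share of all genes), at 0.64. With median-of-ratios scaling 1 of the 5 was called. No macrophage, fibroblast, erythroid or adipocyte marker was called as deposited. With median-of-ratios scaling 1 macrophage marker was lower, and without KO ZT12 A 1 adipocyte marker was lower. Lymphocyte markers summed to at most 1.64 TPM in every library. The part of such cell type markers in the transport results was not tested.

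Of 4 hepatocyte markers tested, 2 were higher and 1 lower, and 5 listed genes summed to 132.8 to 168.9 TPM in KO and 83.2 to 101 TPM in WT. Fgb, a fibrinogen chain gene, held 1.79 to 2.24 TPM in KO and 0.153 to 0.303 TPM in WT (2.82, adjusted p = 0.00039). Alb, the albumin gene, went the other way, at 0.415 to 0.550 TPM against 1.95 to 4.03 TPM (-2.25, adjusted p = 0.000424). Ttr, the transthyretin gene, was the more abundant of the 3, at 68.5 to 116 TPM in KO and 25.8 to 59.6 TPM in WT (1.14, adjusted p = 0.0124). With median-of-ratios scaling and no KO ZT12 A it was not called (adjusted p = 0.0819). The defining hepatocyte gene Alb was thus under 5 TPM in all 8 libraries.

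Genes near Arntl on chromosome 7 were listed by position. Of 120 tested genes within 10 Mb, 42 were higher (35%) and 15 lower (12.5%), against 33.5% and 6.99% of all genes. With median-of-ratios scaling 18 were higher and 23 lower. Rps13, a ribosomal protein gene at 116331505 to 116334195, held 5.503 to 8.85 TPM in KO and 79.0 to 106 TPM in WT (-3.72, SE 0.16, adjusted p = 1.94e-05). Related copies of such genes elsewhere in the genome can take its reads, so this value is uncertain. Nucb2 (-1.55), Xylt1 (-1.79) and Scnn1b, the sodium channel gene named above, had the next smallest p-values. Wee1 also lies in this interval. So does Acsm3, given above, whose -4.47 was the most negative difference of the list and was -3.20 without KO ZT12 A. Whether position has a part in these differences was not tested.

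Taken singly, ZT12 gave 3111 called genes (24.1%) and ZT16 gave 1412 (11%). These counts rest on 2 libraries a group and moved widely when 1 was left out. At ZT12 they ran from 669 without WT ZT12 B to 3636 without KO ZT12 B, with 1173 without KO ZT12 A, 1149 without WT ZT12 A, 2007 without WT ZT16 A and 2021 without WT ZT16 B. At ZT16 they ran from 97 without WT ZT16 A to 1664 without KO ZT12 B, with 304 without WT ZT16 B, 363 without KO ZT16 A, 634 without KO ZT16 B, 906 without WT ZT12 A and 911 without WT ZT12 B. The test of the difference itself called no gene (0%), with 598 at an unadjusted p under 0.05. Among the smallest unadjusted p-values were Nfil3, whose difference was 4.40 at ZT12 and 1.27 at ZT16 (adjusted p = 0.328), and Avpr1a, the vasopressin V1a receptor gene, at 3.13 and 1.70 (adjusted p = 0.402). Dbp differed by -4.14 at ZT12 and by -2.47 at ZT16 (adjusted p = 0.694). None of these passed. Other settings called 4 (pseudocount of 1), 1 (pseudocount of 0.01), 6 (no filter) and 5 (without trend and robust). Leaving out KO ZT12 B gave 29 calls, WT ZT16 A 4, WT ZT16 B 3 and KO ZT16 B 1.

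The genotype difference at ZT12 and ZT16 was then set against that at ZT0, ZT4, ZT8 and ZT20, which used other libraries. The library labelled KO ZT4 A had WT-like values of 1.03 TPM for Cry1 and 23.9 TPM for Nr1d1, where the other KO libraries of the 4 times held 11.5 to 16.7 and 1.23 to 2.75 TPM. Its values go against its label, and some results are also given with it and KO ZT12 A left out together. Of 12874 genes tested, 92 (0.715%) differed, 66 towards higher and 26 towards lower KO, and 2239 had an unadjusted p under 0.05. Of the 92, the genotype difference was larger in size at ZT12 and ZT16 for 91 and had the same sign at both sets of times for 85. Both counts were made with KO ZT4 A kept, whose WT-like values can make the difference at the other times smaller. They were not repeated without it. Leaving out KO ZT12 A gave 43, leaving out both that library and KO ZT4 A gave 49, of which 34 were among the 92. The count depended on single libraries. It was 18 without WT ZT16 A, 628 without KO ZT4 B and 522 without KO ZT12 B, and 12 further libraries lowered it to between 36 and 61.

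Clock genes were among those whose genotype difference at dusk differed most clearly from the other times. Arntl showed a difference of 2.57 at ZT12 and ZT16 but of 0.22 at the other times, since WT then held 0.527 to 12.9 TPM around a KO range of 4.19 to 6.28 TPM. The change was 2.36 (SE 0.19, adjusted p = 2.7e-05), and 2.38 without the 2 libraries (adjusted p = 0.00067). Npas2 changed by 3.27 (adjusted p = 0.00188). Dbp changed by -2.50 (adjusted p = 0.00012), from -0.81 at the other times to -3.31. Per3 changed by -1.37 (adjusted p = 0.00324). The other named genes are not core clock genes. Slc16a1, which encodes the monocarboxylate transporter MCT1, held 18.2 to 26.7 TPM in KO at dusk and 17.7 to 24.4 TPM at the other times. WT held 3.98 to 6.50 TPM at dusk and 4.55 to 18.7 TPM otherwise, so the change of 1.33 (SE 0.16, adjusted p = 0.00188) came with low WT values at dusk. Ddc, the enzyme gene that makes dopamine in the proximal tubule, showed a WT range of 19.6 to 23.99 TPM at dusk and 32.5 to 55.1 TPM otherwise, and changed by 1.18 (adjusted p = 0.0022). Srcin1 changed by 0.89 (adjusted p = 0.0022). Towards lower KO, Nmrk1, a nicotinamide riboside kinase gene, changed by -0.58 (adjusted p = 0.00565). Slc9a8, a sodium-proton exchanger gene, changed by -0.84 (adjusted p = 0.00607) and Hsd3b3, a steroid dehydrogenase gene, by -1.36 (adjusted p = 0.00926). All 10 of these genes remained called without KO ZT12 A and KO ZT4 A.

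**Figure D5:**
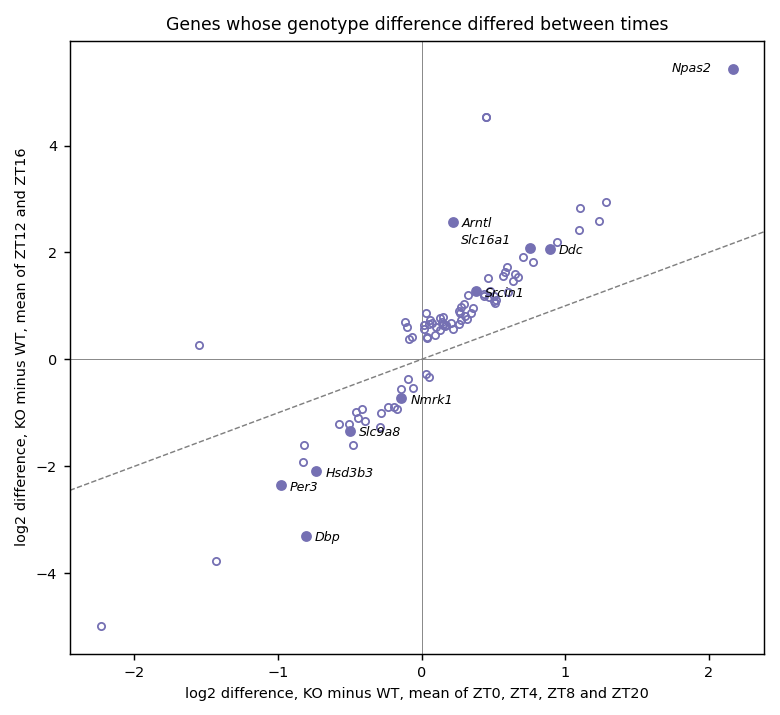
Genotype differences (log2, KO minus WT) at ZT12 and ZT16 against the mean of the other 4 times for the 92 genes in which the 2 differed, with the 10 named genes filled and the dashed line marking equality. Arntl has a difference of 2.57 at dusk and 0.22 otherwise, and Dbp lies at -3.31 and -0.81.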

How the data were processed

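Kidney poly(A) RNA libraries were quantified by the authors with kallisto 0.42.4 against GRCm38 (mm10), per the submitters' processing notes. The deposited values are transcript TPM, and each column sums to the same total (1000000 to 1000001), so depth is unknown. Of 88198 transcripts, 86119 matched a gene of GENCODE M21 (30284 genes) and the others, 1.35 to 2.239% of TPM, were left out. TPM were summed per gene, transformed as log2(TPM + 0.1), filtered at a mean of 1 TPM and tested with limma 3.58.1 in R 4.3.3 (trend and robust), with time as a covariate and Benjamini-Hochberg adjustment over all genes. In simulated data with 200 of 12883 genes changed by 1 log2 unit, this comparison recovered 82%, and 5.2% of its calls were unchanged genes. The simulation changed far fewer genes than were called here, equally in both directions. Its 82% is therefore not the share recovered in these data. Same-lettered libraries did not deviate together (correlations -0.19 to 0.13 over 6 pairs of groups), so letters were not used as pairs.

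Alternatives were other pseudocounts, filters, scalings and spreads, a replicate block and each library left out. The comparison and gene lists were chosen with earlier results of these data known. The sex-related lists came from earlier work on these libraries. Leaving out 2 libraries together, combining 2 changes and recounting the lists by setting were chosen after seeing the data. Named genes were the clock and output genes, the 12 largest non-overlapping protein-coding differences in each direction, up to 4 genes with the smallest p of each other list, and the 5 and 3 genes with the smallest p in each direction of the comparisons between times. Promoter windows are from RefSeq (GRCm38.p6). A few members of these lists are counted but not reported here by name. The samples of the series other than the 24 kidney RNA libraries were not used.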

Additional observations from a re-analysis of the deposited data

Results flagged for a closer look

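Within each genotype, the 4 libraries of ZT12 and ZT16 were searched for a highest or lowest value far from the other 3. Of 314 such groups of 4, 19 (6.05%) had one, against about 1 in 20 by chance, and each group mixes 2 times of day. KO ZT12 A was the distant library in 9 of them. It was low for the Y-linked genes Eif2s3y (0.288 TPM, others 30.1 to 33.1 TPM) and Kdm5d (2.27 TPM, others 5.16 to 5.31 TPM) and for the summed Y-linked genes (3.31 TPM). It was low for Me1 at 60.5 TPM, and high for Ugt1a2 (753 TPM), Slc14a1 (9.50 TPM), Elovl6 (15.3 TPM), Wt1 (7.84 TPM) and Ciart (1.88 TPM). Other KO libraries gave Nr1d1 at 3.46 TPM in KO ZT12 B and Cyp4a12a at 1.77 TPM in KO ZT16 A.

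Among WT libraries, WT ZT16 B was highest for Slc7a12 (16.4 TPM), Abcb1b (2.02 TPM), Uty (6.97 TPM) and the summed fibroblast and mural cell markers (67.5 TPM). WT ZT16 A was lowest for Elovl6 (2.90 TPM) and highest for Nmrk1 (63.3 TPM). Per1 was highest in WT ZT12 A (15.7 TPM) and Nampt lowest in WT ZT12 B (35.5 TPM).

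The genotype difference at ZT12 and ZT16 differed from that at the other 4 times, by the limma test of the difference itself, for 10 named genes. It was more positive at dusk for Arntl (2.36), Npas2 (3.27), Slc16a1 (1.33), Ddc (1.18) and Srcin1 (0.89). It was more negative for Dbp (-2.50), Per3 (-1.37), Hsd3b3 (-1.36), Slc9a8 (-0.84) and Nmrk1 (-0.58).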

How the results depend on the processing

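The 5212 genes called over ZT12 and ZT16 became 3216 with median-of-ratios scaling and 2847 with that scaling and no KO ZT12 A, and 3584 to 4761 when 1 library was left out. The count at ZT12 became 1628 with median-of-ratios scaling, 4926 with the spread from all 24 libraries and 669 to 3636 with 1 library left out. At ZT16 it became 814 with no filter, 806 with median-of-ratios scaling, 2772 with the spread from all 24 libraries and 97 to 1664 with 1 library left out. The test between ZT16 and ZT12, which called 0, called 4 with a pseudocount of 1, 1 with a pseudocount of 0.01, 6 with no filter, 5 without trend and robust and 0 to 29 with 1 library left out. For the difference from the other times, 92 became 145 with TPM rescaled without mitochondrial genes, 49 without KO ZT12 A and KO ZT4 A, and 18 to 628 with 1 library left out. The cause was not tested. With the letters as a replicate block the 5 counts were 4926, 2596, 1063, 0 and 88. The difference in mitochondrial share ran from -2.82 to -2.21 points with 1 library left out. Of 137 genes examined singly, 122 kept their direction and side of the threshold with median-of-ratios scaling. Uncalled genes changed sign. Tsc22d3 became -0.0482 with median-of-ratios scaling and -0.35 with KO ZT12 A left out too, Kdm5d became -0.0784 with the scaling, and Ddx3y 0.0398 with both. With 1 library left out, Per1 ran from -0.40 to 0.23, Tsc22d3 from -0.18 to 0.41, Noct from -0.14 to 0.0824, Rbm3 from -0.17 to 0.0346, Eif2s3y from -2.38 to 0.13, Ddx3y from -2.29 to 0.22 and Kdm5d from -0.0473 to 0.42. With no depth in TPM, the counting error of low genes is unknown.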
